A study of Homo sapiens with 2 samples.

Results

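Isolated accessible regions are stretches of open chromatin that stand alone on the chromosome, with no other listed region within 200 kb on either side. They were chosen from the list of accessible regions of GM12878, on chromosomes 1 to 22, as those whose gap to the previous region and whose gap to the next were both over 200 kb. The gap is the distance from the end of one region to the start of the next, and the first and last region of each chromosome were left out. Of 22668 regions on these chromosomes, 902 met the rule, or 3.98%, out of 23612 regions in the whole list. The rule used position alone, so the number of members and the size of their gaps describe the choice and are not findings. Width, score, band and chromosome were not used to choose them.

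GM12878 is an established human B lymphoblastoid line, made from B lymphocytes by transformation with Epstein-Barr virus. Accessible chromatin was measured by ATAC-seq, in which the Tn5 transposase inserts adapters into DNA that is not covered by nucleosomes. The 2 libraries came from separate untreated cultures in exponential growth, with 50000 cells in each, and form 1 group. The authors deposited 1 list for both cultures, with no values per culture and no counts, so the depth is unknown and no comparison over samples could be tested. All positions are in hg19.

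Accessible regions are where promoters, enhancers and insulators bind their factors. Promoters of active genes tend to give broad open regions, and enhancers of cell identity genes often lie close together. Gene deserts, long stretches with few or no genes, can hold single regulatory elements that act on genes far away, and sites of the insulator protein CTCF. Many such deserts lie in the dark Giemsa bands of the chromosomes, which are known to be rich in A and T, poor in genes and late in replication. No gene annotation or genome sequence of hg19 was used here, so whether a region is a promoter, an enhancer or an insulator is not known.

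The typical isolated region lay 299 kb from its nearer neighbour and 586 kb from its farther one. The smaller gap ran from 200.1 to 2005 kb, with quartiles at 238 and 410 kb. For the other regions the median smaller gap was 16.7 kb. The larger gap was a median of 1.68 times the smaller one. This ratio describes the choice only, since the rule set a lower limit on both gaps. Counting the gaps on both sides, the isolated regions stood in 620 separate stretches that covered 909 Mb, or 31.5% of the length of chromosomes 1 to 22. Stretches without assembled sequence are included in that length. The isolated regions made up 3.29% of the accessible length on these chromosomes.

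Isolated regions were narrower than the rest. Their median width was 616 bp (95% interval 597 to 637), and the quartiles were 477 and 877 bp. The other 21766 regions had a median of 763 bp (756 to 769), with quartiles at 551 and 1091 bp. The difference was 147 bp, or a ratio of 0.807. Intervals of medians are from binomial order statistics, those of shares are Wilson intervals, and both cover the counting of regions in this list only, not the spread between cultures. The 2 intervals did not overlap, but neighbouring regions are not independent, and no test over regions was made.

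The widths differed more at the broad end than at the narrow end. The 95th percentile was 1478 bp for isolated and 1812 bp for other regions, whereas the 5th percentiles were 378 and 406 bp. Of the isolated regions 11 (1.22%) were wider than 2 kb, against 733 (3.37%) of the others. In the other direction, 79 isolated regions (8.76%) were under 400 bp, against 947 (4.35%) of the others. The widest isolated region measured 2394 bp and the widest of the others 5301 bp.

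Each region carries the authors' score, a whole number whose scale no label or header gives. The name of the list includes the term IDR, a measure of agreement between replicates. Whether the score measures this agreement or the strength of the signal is not stated. The score's cap of 1000 was reached by 462 of the 902 isolated regions, or 51.2% (48.0 to 54.5). It was reached by 13114 of the others, or 60.2% (59.6 to 60.9). The difference was 9.03 percentage points. Below the cap the scores were alike: the median was 733.5 for isolated and 731 for other regions, with quartiles of 619 and 859 against 628 and 854.

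Width and score are linked in this list, so each was compared with the other held alike. At the cap, isolated regions had a median width of 805 bp (758 to 864) and the others 959 bp (951 to 969). Below the cap, the medians were 497 bp (482 to 516) and 559 bp (554 to 564). The narrower width was thus present on both sides of the cap, with differences of 154 and 62 bp.

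**Figure D1:**
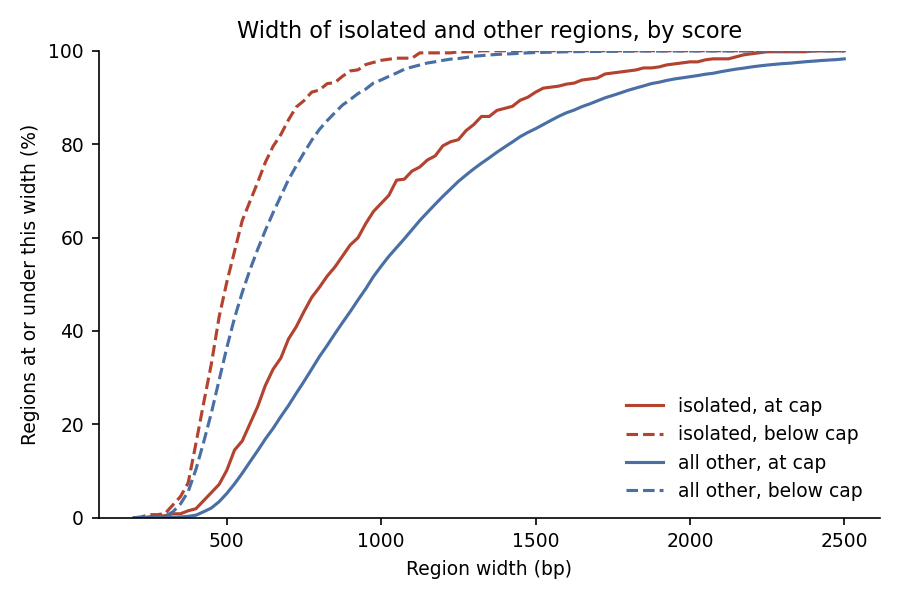
Cumulative share of regions (vertical axis, percent) by width (horizontal axis, bp) for isolated and all other regions, drawn separately at and below the score cap of 1000. The isolated curves lie to the left of the others on both sides of the cap, with medians of 805 against 959 bp at the cap and 497 against 559 bp below it.

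The lower share at the cap did not remain among regions of like width. All 22668 regions were divided by width into 5 classes of nearly equal size, and within each class the share at the cap was compared. In the narrowest class (201 to 513 bp) it was 19.9% of 296 isolated regions (15.8 to 24.9) and 19.5% of 4269 others. In the middle class (667 to 865 bp) it was 63.3% of 158 (55.5 to 70.4) and 60.4% of 4379. In the widest class (1185 to 5301 bp) it was 98.1% of 104 (93.3 to 99.5) and 95.6% of 4420. The isolated share was the higher one in 5 of 5 classes, by 0.42 to 2.87 points, and in each of them its interval held the share of the other regions. What differed was how the regions fell into the classes, since 32.8% of isolated regions were in the narrowest and 11.5% in the widest.

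**Figure D2:**
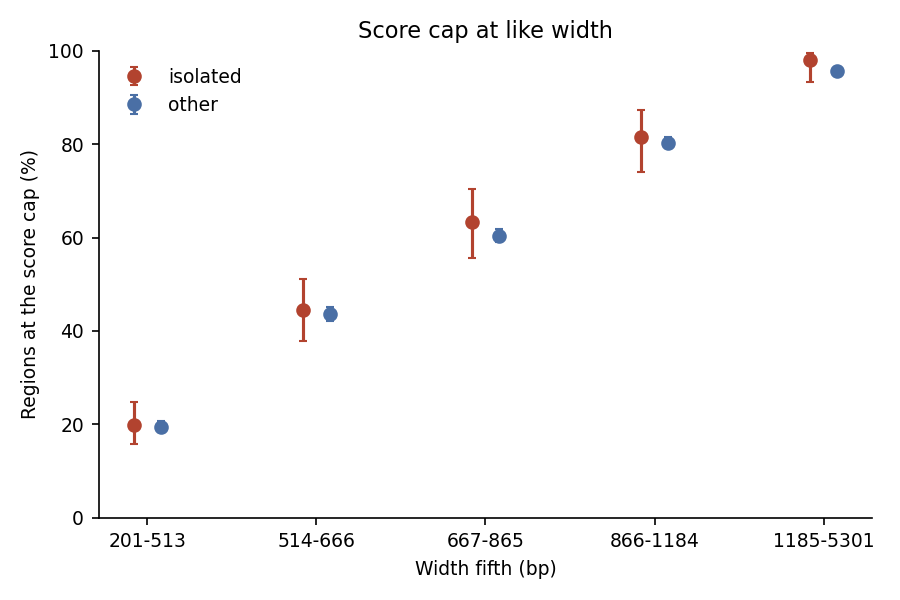
Share of regions at the score cap (vertical axis, percent) in 5 classes of width (horizontal axis, bp) for isolated and other regions, with 95% Wilson intervals. At like width the points of isolated and other regions lie close together, from 19.9 and 19.5% in the narrowest class to 98.1 and 95.6% in the widest.

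Width was nearly level over short gaps and lower beyond 150 kb. Regions whose smaller gap was up to 2 kb had a median width of 785 bp (769 to 800), those at 25 to 50 kb 772 bp (755 to 786), and those at 100 to 150 kb 752.5 bp (729 to 797). At 150 to 200 kb, just outside the limit, the median was 674 bp (649 to 710) over 590 regions. At 200 to 250 kb, just inside it, the median was 654 bp (604 to 711) over 273 members. These 2 intervals overlapped, and the lower widths began outside the 200 kb limit.

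Among the members, median width was 617 bp (578 to 653) at 300 to 400 kb and 539 bp (509 to 603) over the 119 members at 500 to 1000 kb. The 23 members with more than 1000 kb on both sides had a median of 602 bp, with an interval of 487 to 690 that holds the values of the nearest bins. Across the 902 members, Spearman's rho of smaller gap with width was -0.13, a weak relation. It was -0.15 over the 462 members at the cap and -0.03 over the 440 below it. For the other regions rho was -0.04 over 21722 regions.

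The share at the score cap changed over a similar range of gaps. It lay between 59.5 and 61.1% in every bin up to 150 kb, and was 55.3% at 150 to 200 kb, 54.2% at 200 to 250 kb and 52.4% at 300 to 400 kb. At 500 to 1000 kb it was 41.2% (32.7 to 50.2), or 49 of 119 members. Beyond 1000 kb it was 56.5%, or 13 of 23 members, with an interval of 36.8 to 74.4 that is too wide to place it.

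**Figure D3:**
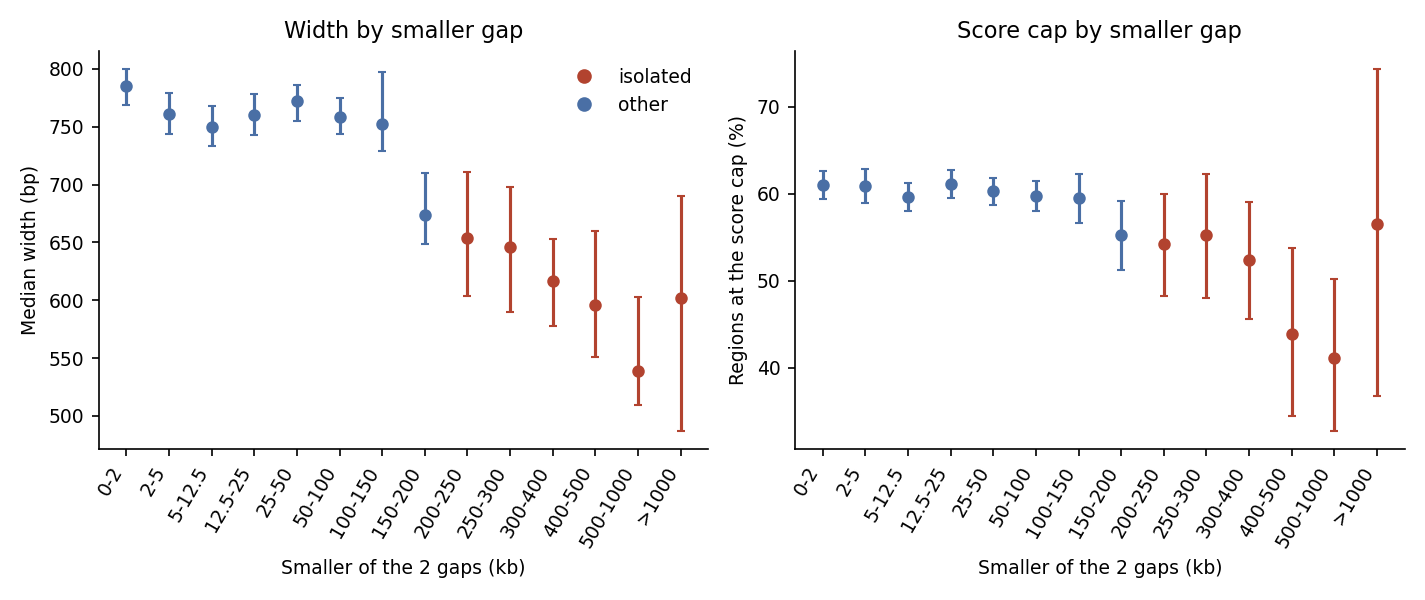
Median width (left, bp) and share of regions at the score cap (right, percent) by the smaller of the 2 gaps (horizontal axis, kb), with 95% intervals that cover counting only. Both are nearly level up to 150 kb and lower from there on, before and after the 200 kb limit, apart from the 23 regions beyond 1000 kb, whose intervals are wide.

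The pair of regions nearest the limit is given as an example and does not measure how much single regions vary. The member nearest inside it lay on chromosome 20 (14318202 to 14318552, band 20p12.1), was 351 bp wide and had a score of 590, with gaps of 552 and 200.1 kb. The region nearest outside it lay on chromosome 11 (122932016 to 122934403, band 11q24.1), was 2388 bp wide and stood at the cap, with gaps of 204 and 199.98 kb.

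Regions with exactly 1 gap over 200 kb, which stand at the edge of an empty stretch, lay between the isolated regions and the rest. These 5097 regions had a median width of 715 bp (704 to 728), and 57.7% of them (56.3 to 59.1) were at the cap. The 16625 regions with no such gap had a median of 778 bp (770 to 786) and 61.0% (60.3 to 61.8) at the cap. At the other end of the range were the 938 regions in clusters of 5 or more joined at gaps of up to about 13 kb, with a median of 822.5 bp (786 to 853) and 63.3% (60.2 to 66.4) at the cap. Both quantities were therefore ordered from clustered through edge to isolated regions, with a span of 206.5 bp between the medians of the outer sets.

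The median width of isolated regions was below that of the others on 22 of 22 chromosomes, by 18.5 bp on chromosome 13 up to 231.5 bp on chromosome 9. No interval was set on these medians, and some rest on few members, such as 6 on chromosome 21 and 11 on chromosome 19. The difference on any single chromosome was therefore not judged. On chromosome 9 the 53 isolated regions had a median of 545 bp and the others 776.5 bp. On chromosome 13 the 34 isolated regions had a median of 716.5 bp and the others 735 bp. Chromosome 15 also showed a small difference, of 37 bp, over 33 members. The share at the cap was less uniform, lower for isolated regions on 16 chromosomes and higher on 6. Among the 15 chromosomes with at least 30 isolated regions it was lower on 10. The share at the cap of isolated and other regions was 38.6 and 61.6% on chromosome 4, and 70.6 and 59.6% on chromosome 13.

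Every autosome held isolated regions, from 6 on chromosome 21 to 82 each on chromosomes 1 and 2. As a share of a chromosome's regions they ranged from 2.10% (1.18 to 3.73) on chromosome 19 to 7.89% (4.57 to 13.3) on chromosome 22, around a median of 3.94%. Chromosome 15 stood at 6.36% (4.56 to 8.80), chromosome 17 at 6.15% (4.37 to 8.60) and chromosome 9 at 6.02% (4.63 to 7.79). Chromosome 7, at 2.96% (2.18 to 4.001), was at the low side. The interval of 17 of the 22 chromosomes held the share of all autosomes, 3.98%, and the 5 that did not were chromosomes 9, 15, 17, 19 and 22.

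Per unit of length the order was different. Chromosome lengths include stretches without assembled sequence, where no region can be listed. Values per Mb, their order and their coefficients of variation depend in part on these stretches. Isolated regions numbered 0.313 per Mb over all autosomes, with the highest value on chromosome 5, at 0.404, and the lowest on chromosome 21, at 0.125. Chromosome 22 had 0.234 per Mb, below the median of 0.310. It also had the fewest regions of any kind, 152 or 2.96 per Mb, so its high share of isolated regions rests on 12 members. Over the 22 chromosomes, regions per Mb and the isolated share had a Spearman rho of -0.35. Both contain the same number of regions, so part of this relation is built in. The coefficient of variation over chromosomes was 32.5% for the isolated share, 24.2% for isolated regions per Mb and 23.6% for all regions per Mb.

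**Figure D4:**
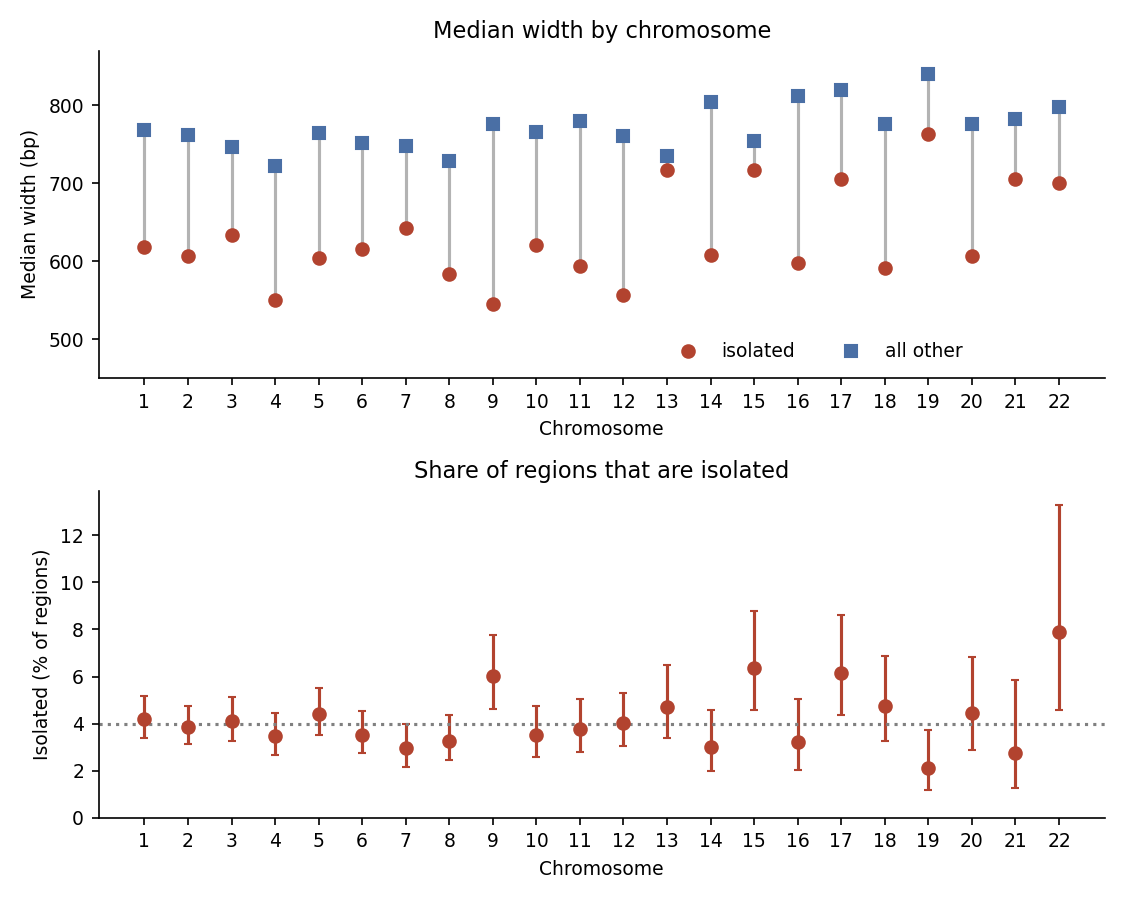
Top, median width (bp) of isolated and all other regions on each chromosome, on an axis that does not start at 0. Bottom, isolated regions as a percent of each chromosome's regions with 95% Wilson intervals and the share over all autosomes (3.98%) as a dotted line. The isolated median is the lower one on 22 of 22 chromosomes, and the share runs from 2.10% on chromosome 19 to 7.89% on chromosome 22.

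Isolated regions were sparser in light Giemsa bands than in the dark and darkest ones, whereas the other regions were densest in light bands. Light bands held 0.265 isolated regions per Mb, the palest dark 0.326, the medium dark 0.349, the dark 0.442 and the darkest 0.425. Over the same classes the other regions fell in density, at 9.74, 7.91, 7.10, 6.87 and 5.79 per Mb. Isolated regions were thus 2.65% of all regions in light bands (2.38 to 2.95) and 6.84% in the darkest (5.97 to 7.82). The 2 darker classes together held 367 members, or 40.7%, against 24.5% of the other regions. Still, light bands held more members than any other class, with 324 or 35.9%. Sparse bands leave longer gaps, so a higher share of isolated regions there follows in part from the rule.

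**Figure D5:**
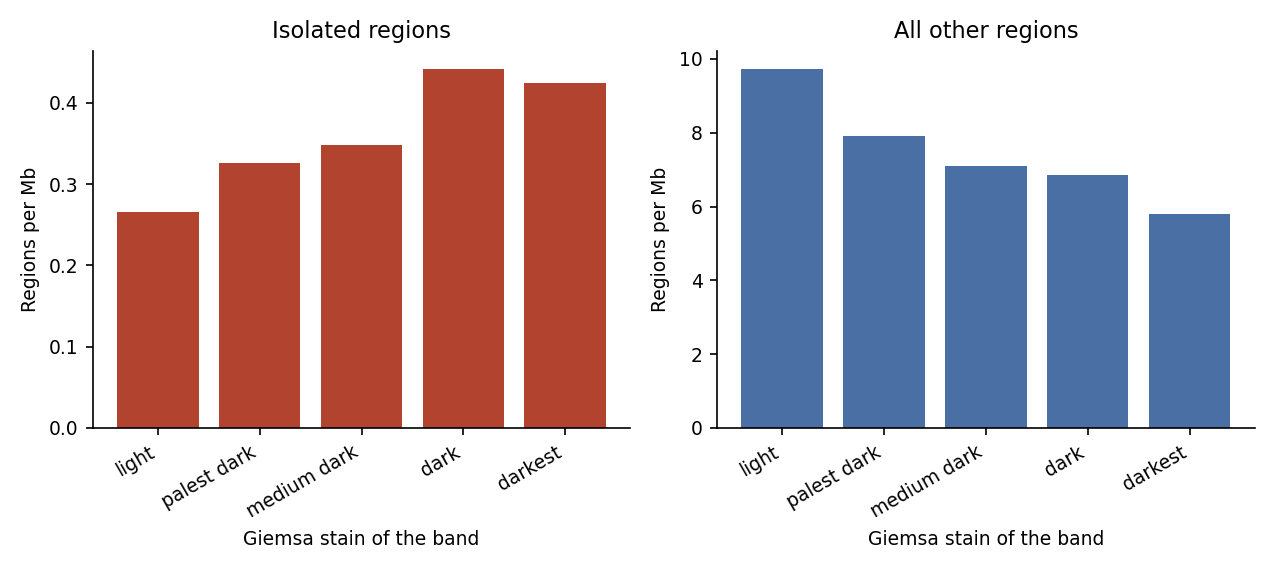
Regions per Mb (vertical axes, both from 0 and on different scales) in the 5 Giemsa classes from light to darkest, for isolated regions (left) and all other regions (right). Isolated regions run from 0.265 per Mb in light to 0.425 in the darkest bands with a peak of 0.442 in the dark class, while the others run from 9.74 down to 5.79.

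The median width of isolated regions was the lower one in each of these 5 classes, by 152.5 bp in light bands and 120 bp in the darkest. In light bands the medians were 626.5 bp (598 to 676) for isolated and 779 bp for other regions. In the darkest bands they were 572 bp (519 to 612) and 692 bp. The smallest difference was 63.5 bp, in medium dark bands. Their share at the cap was lower in all 5 classes too, at 49.4 against 60.1% in light bands and 50.5 against 60.1% in the darkest. Centromeric and variable bands held 6 and 3 members, too few to compare.

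Place along the chromosome arm differed little. Of the isolated regions 5.76% lay within 5 Mb of a chromosome end and 6.10% within 5 Mb of the centromeric bands, against 6.95 and 6.56% of the others. In the 4 classes of distance from the chromosome end, up to 5, 20 and 50 Mb and beyond, the isolated share of regions was 3.32, 3.85, 4.20 and 3.95%. The members were scattered over 463 of 811 bands, and 17 bands held 5 or more. Bands 2q14.3 and 5q14.3 held most, with 7 each, of 51 and 73 regions. In 12q21.1 the members made up 6 of 21 regions.

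Isolated regions stood singly or followed each other in runs. Of the 902, 428 (47.5%) stood between neighbours that were not isolated, 264 were in pairs, 114 in runs of 3 and 68 in runs of 4. Only 5 runs were longer. Regions in runs of 2 or more had a median width of 606.5 bp (582 to 629) and those outside runs 634 bp (601 to 672), intervals that overlap.

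The run with most members held 7 over 5.13 Mb of chromosome 13 (64037848 to 69163216, bands 13q21.31 to 13q21.33). Their widths in order of position were 1050, 792, 531, 861, 1154, 735 and 698 bp, and 6 of the 7 were at the score cap, the exception being the 531 bp region with 678. All but the 531 bp region were wider than the median isolated region. Band 13q21.32 is known to hold PCDH9, which encodes a protocadherin, a cell adhesion protein of neurons.

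The next run held 6 members over 7.45 Mb of chromosome 5 (22593670 to 30041059, bands 5p14.3 to 5p13.3). Their widths were 785, 561, 596, 469, 667 and 487 bp, and their scores 1000, 789, 1000, 770, 1000 and 598. The gaps between them were 615, 782, 1696, 1783 and 2568 kb. Bands 5p14.2 and 5p14.1 are known to hold CDH10 and CDH9, which encode cadherins, another family of adhesion proteins. A run of 5 on chromosome 7 (13097051 to 15965643), by contrast, had 1 member at the cap and a median width of 483 bp.

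The region farthest from any other lay on chromosome 14 (86400126 to 86401636, band 14q31.3), with 4.38 Mb to the previous region and 2.005 Mb to the next. It was 1511 bp wide, broader than 95% of isolated regions, and stood at the cap. The band is known to hold FLRT2, a membrane protein of cell adhesion and axon guidance. Next came 2 members of the run on chromosome 5 (27472102 to 27472768 and 25688239 to 25688707), 667 and 469 bp wide. After them came a region at 5q34 (chromosome 5, 165057199 to 165057647), 449 bp wide with a score of 562. It stood 1.62 and 1.86 Mb from its neighbours. The last of the 5, at 3q26.1 (chromosome 3, 163527276 to 163527877), was 602 bp wide, stood at the cap and had gaps of 1.83 and 1.38 Mb. All 5 lay in the darkest class of band, which held 8 of the 23 members with more than 1 Mb on both sides. The same class held 196 of all 902 members (21.7%) and made up 16.0% of the length of chromosomes 1 to 22. Sparse bands leave longer gaps, so the bands of members ranked by gap are a description only.

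The 5 widest isolated regions, all at the cap, had smaller gaps of 203 to 353 kb and lay outside the dark and darkest bands. This holds for these 5 only. The next in width, 2155 bp at 15q14, lay in a dark band, and a member of 2039 bp at 15q13.1 had a smaller gap of 577 kb. The widest, 2394 bp, was at 3p22.3 (chromosome 3, 33480613 to 33483006), with gaps of 324 and 217 kb. Band 3p22.3 is known to hold UBP1, a transcription factor gene. The next was 2242 bp at 5p15.32 (chromosome 5, 5421333 to 5423574), with gaps of 203 and 328 kb, in a band known to hold ICE1, which encodes a subunit of the little elongation complex for small nuclear RNA genes. Regions of 2218 bp at 11p15.2 (chromosome 11, 13689384 to 13691601) and 2184 bp at 7q31.32 (chromosome 7, 122525602 to 122527785) followed. The latter band is known to hold CADPS2, a factor in vesicle release. The last, 2157 bp, was at 15q11.2 (chromosome 15, 25682896 to 25685052), a band known to hold UBE3A, the ubiquitin ligase whose maternal copy is the active one in neurons. Its gaps were 481 and 353 kb.

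The 3 narrowest members lay in light bands. They measured 205 bp at 1p35.2 (chromosome 1, 30748157 to 30748361), with a score of 920, 230 bp at 6q25.3 (chromosome 6, 156348015 to 156348244), with 563, and 232 bp at 13q13.2 (chromosome 13, 35025576 to 35025807), at the cap. A narrow member could therefore have the highest score. The lowest scores, with ties taken in order of position, were 542 at 12q21.1 (chromosome 12, 71786315 to 71786784, 470 bp) and at 2q14.3 (chromosome 2, 124784732 to 124785052, 321 bp), and 544 at 3q13.31 (chromosome 3, 116018499 to 116018876, 378 bp). A region at 6q12 (chromosome 6, 69677892 to 69678304, 413 bp) tied with the last of these at 544. All 4 were narrower than the median isolated region. Genes are named here as background to the bands, from general knowledge and after the positions were seen, and none was assigned to a region. A band can hold several genes, and not every named region was given one, so no theme can be read from the names.

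A region removed from the list after numbering would make its neighbours look more isolated than they were. The regions are numbered in order of position, and a number was skipped beside 23 isolated regions (2.55%) and beside 88 of the others (0.404%). Of those 23 members, 11 also had a gap that crossed a centromeric, variable or stalk band. Without the 23, the median width difference was 148 bp and the difference in cap share 9.17 points. A gap crossed such a band beside 17 members in all, and without these the differences were 151 bp and 9.40 points. On chromosome 19, 3 of the 11 members stood beside a skipped number and 3 had a gap across such a band.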

How the data were processed

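ATAC-seq was done on 2 cultures of GM12878. The submitters' processing notes list MACS2 2.1.0, bedtools 2.24.0, BWA 0.7.13, Trim Galore 0.3.3, SAMtools 0.1.19, CASAVA 1.8.4 and Picard 1.92, and the build hg19, with no role stated. Peak settings and any shift for the transposase are not given in the sources used here. For both cultures the authors deposited 1 list, with start, end and a score between 541 and 1000 whose scale no header or label states. The list's name points to an IDR cutoff and to filters by mappability, mitochondrial origin and a blacklist, whose settings are not given. The list holds 0 mitochondrial regions, which such a filter would fix. Removing regions lengthens gaps, and apart from skipped numbers the effect of such filters was not tested. Depth is unknown.

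Gaps, widths and skipped numbers were computed with Python 3.11.15, pandas 2.3.3, numpy 2.4.6 and scipy 1.17.1, and plots with matplotlib 3.10.9. Regions were placed by midpoint in hg19 bands from circlize 0.4.16 (R 4.3.3). Intervals are at 95%. Calculations were tested on simulated data. No test over regions was made. Named regions are the 5 with the largest smaller gap, the 5 widest, the 3 narrowest, the 3 lowest in score, those nearest the limit and the longest run. The second run and the run on chromosome 7, the leading bands and the chromosomes named were chosen after their values were seen. Members and rules were chosen with earlier results of these data known. Planned GC, CpG and motif analyses were not run, for want of hg19 sequence here.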

Additional observations from a re-analysis of the deposited data

Results flagged for a closer look

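Chromosome X lies outside the rule and entered no comparison, but 52 of its 776 regions, or 6.70% (95% Wilson interval 5.15 to 8.68), met the same limit on both gaps. A count of 0 would allow up to 0.387%, a level that any chromosome with a few long gaps would pass, so the share is given as a description. The median width of these 52 regions was 703 bp (620 to 842) and that of the other regions on chromosome X 753.5 bp (727 to 792). The 2 intervals overlapped, but they cover the counting of regions only and no test was made. The difference in width on this chromosome was therefore not judged.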

How the results depend on the processing

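Of 110 alternatives over 4 results (number of isolated regions, differences in median width and in cap share, coefficient of variation of the isolated share over chromosomes), 95 left the value the same, 14 moved it and 1 reversed it. A number or a coefficient was the same within 1.5 times, and a difference within the interval of the isolated value. Most alternatives left out 1 chromosome, with 22 for each of the first 3 results and 2 for the coefficient. All of these were the same, which raises the tally. For the number this was fixed in advance, since no chromosome held more than 82 of the 902 members. The differences in width and in cap share kept at least 820 members each time, so they had little room to move. The reversed value was the difference in cap share averaged over 5 classes of width, at 1.54 points higher for isolated regions. A gap over 100, 150, 300 or 500 kb gave 2632, 1492, 448 and 142 regions, by construction. Width differences were -82.5 bp at 100 kb, -124 bp at 150 kb and -207.5 bp at 500 kb. Differences in cap share were -4.74 points at 100 kb, -12.4 at 300 kb and -16.3 at 500 kb, and the coefficient of variation was 85.8% at 500 kb. The width difference was -62 bp below the score cap, -120 bp in the darkest bands and -102 bp with only regions at the cap and their gaps recomputed. The cause was not tested. Leaving out each chromosome in turn gave width differences of -154 to -140 bp and cap share differences of -9.81 to -8.07 points. No paired analysis was possible because a single list covers both cultures, and for the same reason neither culture could be omitted. Alternatives for GC content, CpG content and motifs were not run.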
